A study of Homo sapiens with 40 samples.

Results

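Gene expression in AG01522 cells 24 h after a single 5 cGy X-ray dose was compared with that in sham-irradiated cultures, on 3 arrays of irradiated and 4 arrays of sham cells out of 40 in the series. The 3 arrays were those whose title gives 24 h and 5 cGy alone, and the 4 were those titled sham. AG01522 (AG1522) is an established line of normal human skin fibroblasts, grown to full confluence before treatment. The low dose serves in the study as the priming dose that precedes a 2 Gy challenge 12 h later, and these 3 cultures received the priming dose only. The sham cultures were shielded with a lead mask and carry a 0 h label, so that 24 h in culture and the dose of 5 cGy cannot be told apart in this comparison. All groups were the same line in the same medium, and each array was labelled a biological replicate without further detail. The p-values rest on the spread between cultures within groups, pooled over all 40 arrays. For comparison within the series, 3 arrays each of 5 cGy at 3 h, 5 cGy at 12 h and 2 Gy at 24 h were used.

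X-rays damage DNA, and the transcription factor p53 then raises CDKN1A, an inhibitor of cyclin-dependent kinases, so that RB proteins stay bound to E2F factors and the genes for DNA synthesis stay off. Cells that commit to S phase first load the MCM helicase on origins with ORC, CDC6 and CDT1, and then fire it with CDC45 and the GINS complex under cyclin E and CDC25A. Genes for mitosis are switched on later, largely through MYB-MuvB and FOXM1. Confluent fibroblasts divide little, and the few cycling cells carry most of the messenger RNA for both gene groups. In bulk RNA, fewer cells in a phase and less RNA per cell cannot be told apart.

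Expression was given as log2 values normalised by robust multi-array average (RMA), in which a difference of 1 is a 2-fold difference. The 3 irradiated arrays deviated from their group means by 0.126 to 0.143 (root mean square over genes) and the sham arrays by 0.195 to 0.336, with sham replicate 1 the farthest. The difference between 3′ and 5′ GAPDH control probe sets, a sign of RNA degradation, ranged from 0.33 to 0.42 in 5 cGy 24 h cultures and from 0.28 to 0.40 in sham cultures. That of ACTB was 2.55, 2.61 and 2.73 in 5 cGy 24 h cultures, against 2.68, 2.12, 2.27 and 2.23 in sham cultures, so that sham replicate 1 lay with the irradiated arrays and the others under them. With the ACTB difference as a covariate, chosen after seeing the data, 405 genes differed from sham (259 higher, 146 lower) at an adjusted p under 0.05, against 567 without it. The 12 fibroblast markers averaged 12.44 to 12.58 per irradiated array and 12.24 to 12.64 per sham array, and none lay under the median gene. The keratinocyte, melanocyte, endothelial, leukocyte and adipocyte lists averaged 5.05 to 6.06 in irradiated and 4.90 to 6.12 in sham arrays, under the median gene at 6.58. Single members were higher, up to 12.09 (keratinocyte), 7.24 (melanocyte) and 8.44 (leukocyte). Under the median gene lay 8 of 11 keratinocyte, 5 of 7 melanocyte and 8 of 9 leukocyte markers. CD3E (0.39 ± 0.09) and PPARG (0.69 ± 0.20) were the only called members of these lists, both at low level. Smooth muscle and myofibroblast markers averaged 11.59 to 11.87 in irradiated and 11.80 to 11.90 in sham arrays.

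At 24 h after 5 cGy, 567 of 18244 genes (3.11%) differed from sham at an adjusted p under 0.05, of which 389 (2.13%) were higher and 178 (0.976%) lower. These shares are the background for the counts in each gene list below. The median change of all genes was 0.03. Among the 567 genes, 26 rose and 28 fell by more than 2-fold, and in 516 the 3 irradiated arrays all lay on one side of the 4 sham arrays, a separation also seen over all genes in 7.08% upward and 3.37% downward. The spread in this fit came from all 40 arrays, while the median SD over genes was 0.204 in sham and 0.118 in 5 cGy 24 h. With the 7 arrays alone 17 genes passed (12 higher, 5 lower), all of them among the 567. CDC6, EXO1, DUSP2, P3H2 and COXFA4L3 were those that were lower, and DDIT3, DHRS3, APCDD1, OLFML2B, SLC12A8, FAXDC2 and TMT1A were among those that were higher. Leaving out 1 of the 7 arrays at a time gave 142 to 853 genes, the lowest without 5 cGy 24 h replicate 3 and then 228 without sham replicate 2, while 110 genes (74 higher, 36 lower) passed in each of the 7 fits. With every array centred on its own median the split turned to 209 higher and 284 lower. At the study's own threshold of over 1.2-fold with an unadjusted p under 0.05, 2331 genes (12.8%) passed, 1540 higher (8.44%) and 791 lower (4.34%). The counts that the study lists for 5 cGy at 24 h are lower, both at this unadjusted p and at an adjusted p under 0.05. The reason for the difference was not tested.

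**Figure D1:**
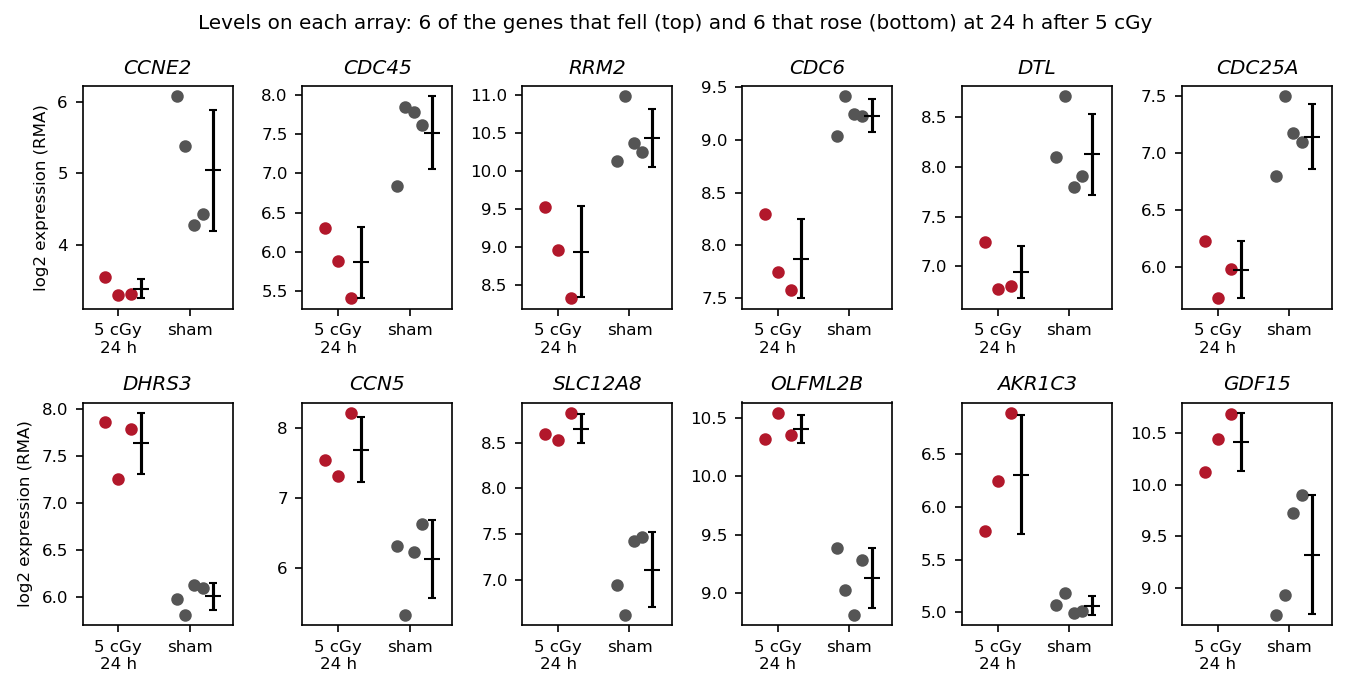
Log2 expression of 12 genes on each array, with the 3 arrays of 5 cGy 24 h (red) to the left of the 4 sham arrays (grey), and the mean with its SD beside each group. The irradiated arrays lie wholly under the sham arrays for CCNE2, CDC45, RRM2, CDC6, DTL and CDC25A. They lie wholly above them for DHRS3, CCN5, SLC12A8, OLFML2B, AKR1C3 and GDF15. All 12 come from called genes chosen for groups that do not overlap, so this separation follows from the choice.

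Genes of DNA replication were prominent among the falls. Of 104 analysed genes in 6 S phase lists, 24 were called lower and none higher, against 0.976% of all genes called lower, and 88 had a negative change, with a median of -0.30. Without 5 cGy 24 h replicate 3 the count was 9, without 5 cGy 24 h replicate 2 it was 14, without sham replicate 2 it was 16, and with the 7 arrays alone it was 1 (CDC6). The promoters of 6 of the S phase and recombination genes that fell are given here because E2F is the factor known to drive this group. They are the 300 bases from 250 before to 50 after the RefSeq gene start in GRCh38.p14, read 5′ to 3′ on the gene's strand, with letters searched as E2F sites (TTTGGCGC, TTTCCCGC, TTTGCCGC or TTTCGCGC on either strand) in capitals. The windows span chr17:40287629-40287928 on the plus strand (CDC6), chr2:135876394-135876693 on the minus strand (MCM6), chr1:212035498-212035797 on the plus strand (DTL), chr3:48188368-48188667 on the minus strand (CDC25A), chr1:241847954-241848253 on the plus strand (EXO1) and chr22:19479670-19479969 on the plus strand (CDC45).
CDC6: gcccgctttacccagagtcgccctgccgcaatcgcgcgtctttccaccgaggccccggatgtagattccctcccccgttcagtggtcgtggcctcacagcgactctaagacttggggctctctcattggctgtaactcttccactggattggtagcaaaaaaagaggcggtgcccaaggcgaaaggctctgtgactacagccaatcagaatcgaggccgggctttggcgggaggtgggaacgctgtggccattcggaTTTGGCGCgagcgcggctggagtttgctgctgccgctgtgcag
MCM6: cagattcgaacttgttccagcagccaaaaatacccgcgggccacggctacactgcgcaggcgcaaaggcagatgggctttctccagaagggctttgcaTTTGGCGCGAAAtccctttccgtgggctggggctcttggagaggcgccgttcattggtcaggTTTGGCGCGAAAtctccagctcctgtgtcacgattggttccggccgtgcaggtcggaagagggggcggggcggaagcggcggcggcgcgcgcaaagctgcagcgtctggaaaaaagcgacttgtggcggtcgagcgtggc
DTL: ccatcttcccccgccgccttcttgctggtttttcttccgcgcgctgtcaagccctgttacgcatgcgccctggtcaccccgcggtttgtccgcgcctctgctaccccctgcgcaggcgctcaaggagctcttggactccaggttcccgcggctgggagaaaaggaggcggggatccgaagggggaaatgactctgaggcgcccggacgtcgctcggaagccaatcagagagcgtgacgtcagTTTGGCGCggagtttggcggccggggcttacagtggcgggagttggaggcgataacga
CDC25A: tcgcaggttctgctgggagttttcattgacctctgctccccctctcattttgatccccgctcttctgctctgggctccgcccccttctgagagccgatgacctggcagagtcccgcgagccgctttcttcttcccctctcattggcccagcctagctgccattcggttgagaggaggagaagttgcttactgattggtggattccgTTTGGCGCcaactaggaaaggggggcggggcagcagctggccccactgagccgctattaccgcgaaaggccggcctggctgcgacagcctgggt
EXO1: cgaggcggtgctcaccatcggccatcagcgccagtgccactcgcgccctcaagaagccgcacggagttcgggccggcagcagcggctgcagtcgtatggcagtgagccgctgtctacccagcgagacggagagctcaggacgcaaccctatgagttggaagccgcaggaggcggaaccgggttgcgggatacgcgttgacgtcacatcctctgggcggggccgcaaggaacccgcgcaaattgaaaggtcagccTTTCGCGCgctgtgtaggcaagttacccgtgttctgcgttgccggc
CDC45: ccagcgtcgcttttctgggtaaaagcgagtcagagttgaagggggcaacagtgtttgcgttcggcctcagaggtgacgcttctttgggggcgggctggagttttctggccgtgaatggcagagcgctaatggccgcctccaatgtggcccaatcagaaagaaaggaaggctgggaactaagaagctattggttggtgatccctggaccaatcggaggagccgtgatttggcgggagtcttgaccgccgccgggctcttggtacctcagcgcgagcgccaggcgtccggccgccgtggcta
CDC6 held a match 8 bases after its start, DTL one from base -8, CDC25A one from base -44 and EXO1 one 5 bases after its start. In MCM6 there were 4 matches, which form 2 overlapping pairs from bases -152 and -90, since the letters read on both strands. CDC45, like RRM2, held none of these letters, and no match says only that they are absent from this window.

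Over the 27305 promoters of the table, 3.33% held an E2F match, as did 4.55% of the 14472 analysed genes with a promoter in it. Among the genes called lower with a promoter in the table, 24 of 152 held one (15.8%), and among those called higher 12 of 322 (3.73%). Of the 28 S phase and recombination genes called lower, 24 had a promoter and 14 of these held the E2F letters (58.3%), against 21 of 77 (27.3%) in the same lists among genes not called lower. The CHR element (TTTGAA), known from mitotic promoters, was in none of those 24, in 25 of 34 promoters of the mitotic list (73.5%) and in 15.4% of the table. A match is a description of the letters and no measure of binding.

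In the licensing list 5 of 15 analysed genes were called lower, with a list median of -0.28. The median was -0.16 without sham replicate 1, -0.17 without sham replicate 2, -0.42 without sham replicate 3 and -0.44 without sham replicate 4. With the 7 arrays alone 1 gene was lower, without 5 cGy 24 h replicate 3 the count was 2, and without 5 cGy 24 h replicate 2 or sham replicate 3 or 4, or with the ACTB difference as a covariate, it was 3. CDC6, which loads the MCM ring at origins, measured 8.29, 7.75 and 7.57 in 5 cGy 24 h cultures, against 9.03, 9.41, 9.25 and 9.22 in sham cultures. All irradiated cultures were low and the groups did not overlap, a change of -1.36 ± 0.20 (2.56-fold lower, adjusted p = 0.000161). Its partner CDT1 changed by -1.03 ± 0.28, with sham replicate 1 inside the irradiated range, and passed in 2 of 7 leave-one-out fits (highest adjusted p 0.189, without 5 cGy 24 h replicate 3). ORC6, a subunit of the origin recognition complex, fell by 0.97 ± 0.20 (adjusted p = 0.00428). MCM10, which joins the helicase when origins fire, fell by 0.81 ± 0.17 and ORC1 by 0.50 ± 0.14. The call of MCM10 was lost without 5 cGy 24 h replicate 3 (adjusted p = 0.0905), and ORC1 passed in 3 of 7 leave-one-out fits (highest adjusted p 0.253, without 5 cGy 24 h replicate 3). Of members that did not pass, the CDT1 inhibitor GMNN was at -0.43 ± 0.17 (adjusted p = 0.172).

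The helicase itself had 6 of 11 analysed subunits lower, with a list median of -0.67. CDC45, which binds MCM to make it active, measured 6.31, 5.89 and 5.41 in 5 cGy 24 h cultures, against 6.84, 7.84, 7.79 and 7.61 in sham cultures. Sham replicate 1 was the lowest of the sham arrays and still above every irradiated array, and the change was -1.65 ± 0.25 (3.14-fold lower, adjusted p = 0.000204). MCM6, a subunit of the ring, measured 8.15, 7.80 and 7.67 in 5 cGy 24 h cultures, against 8.90, 9.001, 8.85 and 8.66 in sham cultures. This was a change of -0.98 ± 0.12 (adjusted p = 7.78e-06), with no overlap. Subunits of GINS fell as well, with GINS3 at -1.07 ± 0.23, GINS2 at -1.19 ± 0.29 and GINS1 at -0.67 ± 0.19. For GINS2 the groups overlapped, since sham replicate 1 (7.16) was lower than 5 cGy 24 h replicate 1 (7.43). MCM4 fell by 0.53 ± 0.13, while GINS4 (-0.75 ± 0.22, adjusted p = 0.0542) and MCM2 (-0.56 ± 0.17, adjusted p = 0.0575) did not pass. Sham replicate 1 was the lowest sham array in 8 of the 11 genes. Its list median lay 0.55 under the sham mean, inside the irradiated range, in which replicate 1 was the nearest to sham at -0.41, and without it 8 subunits passed. Without 5 cGy 24 h replicate 3, 2 subunits passed, and without replicate 2 of either 5 cGy 24 h or sham, or with the ACTB difference as a covariate, 3 did. GINS3 passed in 6 of 7 leave-one-out fits, GINS2 and MCM4 in 4 and GINS1 in 2. Their highest adjusted p came without 5 cGy 24 h replicate 3 (GINS3 0.0664, GINS2 0.203, GINS1 0.347 and MCM4 0.205).

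At the fork, 5 of 27 analysed genes for polymerases, clamp and their partners were lower (median -0.21). POLE2, a subunit of polymerase epsilon, changed by -0.87 ± 0.24, the clamp loader subunits RFC2 and RFC3 by -0.77 ± 0.17 and -0.52 ± 0.14, the flap endonuclease FEN1 by -0.76 ± 0.16, and the clamp PCNA by -0.38 ± 0.10. PCNA measured 10.94, 10.63 and 10.62 in 5 cGy 24 h cultures, against 11.31, 11.15, 10.99 and 10.98 in sham cultures. The groups were apart by less than 0.1 at their nearest, with irradiated replicate 1 the highest of its group, and PCNA passed in 3 of 7 leave-one-out fits (highest adjusted p 0.224, without 5 cGy 24 h replicate 3). RFC2 and FEN1 passed in 6 of 7 such fits, and POLE2 passed in 2 of 7 leave-one-out fits (highest adjusted p 0.296, without 5 cGy 24 h replicate 3). Leave-one-out fits also lost calls here, with the highest adjusted p without 5 cGy 24 h replicate 3 for RFC2 (0.0917), FEN1 (0.0704) and RFC3 (0.213).

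Of 15 analysed genes for nucleotide supply, only RRM2 was called. RRM2, the regulated subunit of ribonucleotide reductase, measured 9.53, 8.97 and 8.33 in 5 cGy 24 h cultures, against 10.14, 10.99, 10.37 and 10.26 in sham cultures. The irradiated cultures spread over more than 1 log2 unit but none reached a sham array, and the change was -1.50 ± 0.24 (2.83-fold lower, adjusted p = 0.000327). Its partner RRM1 was at -0.44 ± 0.16 (adjusted p = 0.148) with overlapping groups.

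Among cyclins, E2F factors and their targets 6 of 25 analysed genes fell. CCNE2, the cyclin that activates CDK2 at the entry to S phase, measured 3.54, 3.30 and 3.31 in 5 cGy 24 h cultures, against 6.08, 5.38, 4.27 and 4.44 in sham cultures. The irradiated arrays were close together near the bottom of the scale and the sham arrays far apart, and the change was -1.66 ± 0.27 (adjusted p = 0.000498). The lowest value in the table was 2.33, and no fold is given for levels this low. The other probe set of CCNE2 gave -0.20. CDC25A, the phosphatase that activates CDK2, measured 6.23, 5.72 and 5.98 in 5 cGy 24 h cultures, against 6.80, 7.50, 7.18 and 7.10 in sham cultures. It was low in each irradiated culture (change -1.17 ± 0.20, adjusted p = 0.000969). DTL, which marks CDT1 for destruction, measured 7.25, 6.78 and 6.81 in 5 cGy 24 h cultures, against 8.09, 8.70, 7.79 and 7.90 in sham cultures. No irradiated culture reached the sham range (change -1.18 ± 0.24, adjusted p = 0.00367), and its second probe set gave -1.12. ZNF367, a zinc finger factor, changed by -1.27 ± 0.27, CDCA7, a chromatin protein and MYC target, by -1.26 ± 0.31 with overlapping groups, and the D-type cyclin CCND3 by -0.51 ± 0.11. CDCA7 passed in 4 of 7 leave-one-out fits (highest adjusted p 0.225, without 5 cGy 24 h replicate 3). SKP2 (-0.90 ± 0.31) did not pass (adjusted p = 0.109). Calls lost in a leave-one-out fit had their highest adjusted p without 5 cGy 24 h replicate 3 for CCND3 (0.0636).

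**Figure D2:**
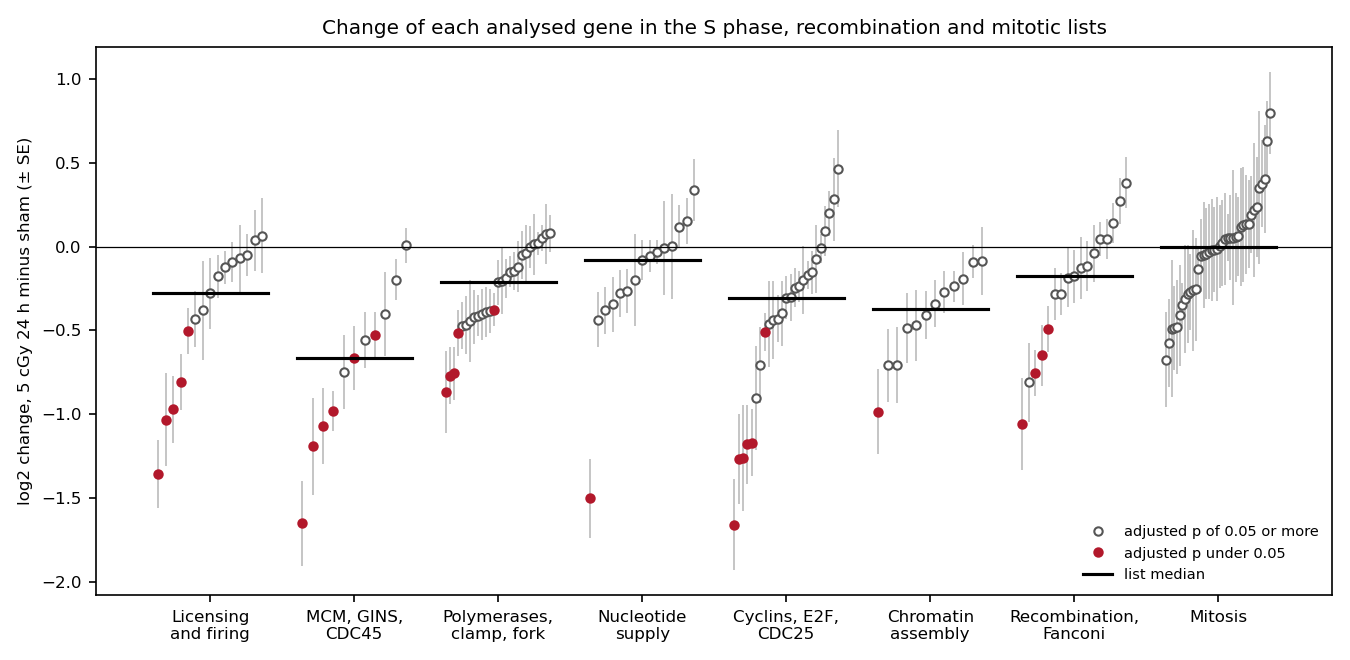
Log2 change with its SE, 5 cGy 24 h minus sham, for each analysed gene of 8 cell cycle and repair lists, sorted within its list, with called genes filled red and the list median as a bar. Called genes lie at the low end of the 6 S phase lists and of the recombination list, the helicase list has the lowest median (-0.67), and no gene of the mitotic list is called.

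All 12 analysed genes for chromatin assembly at the fork had negative changes (median -0.37), and 1, the ATPase ATAD2, passed at -0.98 ± 0.25, in 2 of the 7 leave-one-out fits. None of 40 analysed mitotic genes was called against sham, and 20 were positive and 20 negative. Their median was 0.00, or -0.21 without sham replicate 1 and 0.16 without sham replicate 2. The median SD over the sham arrays was 0.53 for the mitotic genes and 0.29 for the S phase genes, and a wider spread makes a call harder to reach. MKI67, the proliferation marker, measured 8.15, 7.98 and 7.76 in 5 cGy 24 h cultures, against 7.36, 8.82, 7.91 and 7.88 in sham cultures. The sham arrays enclosed the irradiated ones, and the change was -0.03 ± 0.28. Mitotic genes were uneven among sham cultures, with list medians relative to the sham mean of -0.41, 0.53, 0.05 and -0.06 in replicates 1 to 4, against -0.14, 0.17 and -0.06 in the irradiated cultures. Of the 41 analysed core histone genes 1 fell, H2BC21 (-0.63 ± 0.13). Outside the mitotic and histone lists, FBXO5, the inhibitor of the anaphase-promoting complex, fell with a change of -0.85 ± 0.19, and the kinetochore protein ZWINT with one of -0.84 ± 0.16. H2BC21 passed in 6 of 7 leave-one-out fits and FBXO5 in 5. The highest adjusted p came without sham replicate 2 for ATAD2 (0.1) and without 5 cGy 24 h replicate 2 for H2BC21 (0.0846). For FBXO5 it came without 5 cGy 24 h replicate 3 (0.134).

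Homologous recombination had 4 of 17 analysed genes lower and none higher (median -0.18), against 0.976% of all genes called lower. EXO1, the exonuclease that resects broken ends, measured 5.08, 5.05 and 5.00 in 5 cGy 24 h cultures, against 5.81, 5.79, 5.74 and 5.85 in sham cultures. Both groups were tight and far apart, with a change of -0.75 ± 0.14 (adjusted p = 0.00148). BRCA1 measured 4.89, 5.01 and 4.95 in 5 cGy 24 h cultures, against 5.59, 5.39, 5.37 and 5.42 in sham cultures. It was lower in each irradiated culture by 0.49 ± 0.14 (adjusted p = 0.0417), and passed in 1 of 7 leave-one-out fits (highest adjusted p 0.164, without 5 cGy 24 h replicate 3). BARD1, its partner, was at -1.06 ± 0.28 and RAD54B at -0.65 ± 0.18. BARD1 and RAD54B passed in 3 of 7 leave-one-out fits each, and 1 gene of the list was lower without 5 cGy 24 h replicate 2 or 3 or without sham replicate 1 or 2. None of 18 genes for end joining and damage signalling and none of 12 for mismatch and base excision repair passed. With 1 array left out, a call was lost, with the highest adjusted p without 5 cGy 24 h replicate 3 for BARD1 (0.229) and RAD54B (0.359).

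p53 targets were called higher in 3 of 38 analysed genes and lower in none (median 0.25, 30 of 38 positive), against 2.13% of all genes called higher. None passed with the 7 arrays alone, without 5 cGy 24 h replicate 3 or without sham replicate 2, 1 passed without 5 cGy 24 h replicate 2, and without sham replicate 1 5 were higher and 2 lower. GDF15, a secreted stress cytokine, measured 10.12, 10.44 and 10.68 in 5 cGy 24 h cultures, against 8.74, 8.93, 9.73 and 9.89 in sham cultures. Sham replicates 1 and 2 were the low ones, and the change was 1.09 ± 0.28 (2.13-fold higher, adjusted p = 0.0238). BBC3 (PUMA), a BH3-only inducer of apoptosis, measured 8.58, 8.53 and 8.50 in 5 cGy 24 h cultures, against 7.55, 7.50, 8.17 and 8.34 in sham cultures. The same sham cultures were low, and the change was 0.64 ± 0.17. EDA2R, a death-domain receptor of the TNF family, changed by 0.50 ± 0.11 (adjusted p = 0.0081). GDF15 passed in 3 of 7 leave-one-out fits (highest adjusted p 0.178, without 5 cGy 24 h replicate 3), BBC3 passed in 2 of 7 leave-one-out fits (highest adjusted p 0.144, without sham replicate 2) and EDA2R passed in 5 of 7 leave-one-out fits (highest adjusted p 0.0828, without 5 cGy 24 h replicate 3). CDKN1A, the direct inhibitor of the cell cycle, measured 13.05, 13.19 and 13.15 in 5 cGy 24 h cultures, against 12.89, 12.63, 13.19 and 13.22 in sham cultures. Its groups overlapped (change 0.14 ± 0.10, adjusted p = 0.531).

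Of 25 analysed genes of the integrated stress response, DDIT3 and CHAC1 rose, against 2.13% of all genes, and none was called lower. The list as a whole was not shifted, with 12 changes positive, 13 negative and a median of -0.008. The integrated stress response slows translation and raises ATF4, which in turn raises DDIT3, the factor CHOP. DDIT3 measured 7.53, 7.66 and 7.60 in 5 cGy 24 h cultures, against 6.57, 6.81, 6.70 and 6.50 in sham cultures. Each group was tight and the gap wide, with a change of 0.95 ± 0.23 (1.94-fold higher, adjusted p = 0.0159). CHAC1, which breaks down glutathione, changed by 0.95 ± 0.27 (adjusted p = 0.0498) and passed in 1 of 7 leave-one-out fits (highest adjusted p 0.209, without sham replicate 2). The promoter of CHAC1 is shown because it holds the composite ATF4 and CHOP letters TGATGCAA, here on the opposite strand and in capitals from base -209, which 0.923% of promoters in the table and 3 of 21 promoters of the list (14.3%) hold. It spans chr15:40953221-40953520 on the plus strand.
CHAC1: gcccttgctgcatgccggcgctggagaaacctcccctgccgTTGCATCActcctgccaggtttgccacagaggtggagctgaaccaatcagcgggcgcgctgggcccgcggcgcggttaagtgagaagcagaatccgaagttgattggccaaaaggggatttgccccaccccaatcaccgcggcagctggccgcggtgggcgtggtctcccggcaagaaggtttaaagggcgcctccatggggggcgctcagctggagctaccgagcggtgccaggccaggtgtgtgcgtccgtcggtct
DDIT4, an mTOR inhibitor, lay above sham in each irradiated culture at 1.43 ± 0.49 and did not pass (adjusted p = 0.11). Endoplasmic reticulum chaperones showed 1 fall among 21 analysed genes, CALR (-0.39 ± 0.11), and cytosolic heat shock genes 2 among 19, the J-protein DNAJB4 (-0.99 ± 0.27) and the constitutive chaperone HSPA8 (-0.46 ± 0.08). DDIT3 passed in 5 of 7 leave-one-out fits, CALR in 3 and DNAJB4 in 2. Their highest adjusted p came without 5 cGy 24 h replicate 3 (DDIT3 0.0812, CALR 0.373 and DNAJB4 0.181).

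None of 26 analysed immediate early genes passed. FOS, the best known of them, measured 7.84, 8.63 and 9.99 in 5 cGy 24 h cultures, against 10.20, 11.28, 11.85 and 11.49 in sham cultures. The groups did not overlap but the arrays spread widely, and a change of -2.39 ± 0.90 did not pass (adjusted p = 0.152). JUN was at -0.08 ± 0.20. DUSP2, a phosphatase that switches MAP kinases off, measured 6.25, 6.37 and 6.25 in 5 cGy 24 h cultures, against 7.21, 7.27, 7.35 and 7.62 in sham cultures. It fell by 1.08 ± 0.14 (adjusted p = 3.29e-05), with DUSP1 at -0.88 ± 0.24 and DUSP14 at -0.46 ± 0.12. Together they were 3 of 20 analysed genes of MAP kinase feedback, against 0.976% of all genes called lower. DUSP1 passed in 1 of 7 leave-one-out fits (highest adjusted p 0.205, without 5 cGy 24 h replicate 1). DUSP14 passed in 2 of 7 such fits (highest adjusted p 0.146, without 5 cGy 24 h replicate 3).

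Of 29 analysed cytokine and NF-kB genes 2 fell, against 0.976% of all genes. IL7R, a receptor chain for interleukin 7 and TSLP, measured 5.30, 5.43 and 5.26 in 5 cGy 24 h cultures, against 7.08, 6.83, 6.24 and 6.22 in sham cultures. The change was -1.27 ± 0.19 (adjusted p = 0.000169) without overlap. CXCL8, the neutrophil chemokine, measured 9.96, 9.12 and 9.81 in 5 cGy 24 h cultures, against 10.995, 11.46, 10.26 and 10.25 in sham cultures. Sham replicates 1 and 2 were the high ones, the change was -1.11 ± 0.30, and CXCL8 passed in 3 of 7 leave-one-out fits (highest adjusted p 0.212, without 5 cGy 24 h replicate 2). Growth factors HBEGF (-0.85 ± 0.21), FGF5 (-0.79 ± 0.19) and VEGFC (-0.61 ± 0.14) fell. The receptors IGF1R (0.64 ± 0.14), PDGFRA (0.56 ± 0.16) and PDGFRB (0.45 ± 0.12) rose. Together they were 6 of 29 analysed genes in that list, against 3.11% of all genes called in either direction. PDGFRA and PDGFRB passed in 3 of 7 leave-one-out fits, HBEGF and FGF5 in 4, VEGFC in 5 and IGF1R in 6. The highest adjusted p came without 5 cGy 24 h replicate 3 for HBEGF (0.151), FGF5 (0.118), IGF1R (0.0673) and PDGFRA (0.311). It came without sham replicate 2 for VEGFC (0.0674) and PDGFRB (0.162).

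In TGF-beta and BMP signalling 2 of 26 analysed genes fell and 2 rose, against 0.976% and 2.13% of all genes. ID4, an inhibitor of bHLH factors and a BMP target, was at -1.24 ± 0.28, and the BMP antagonist NOG at -0.68 ± 0.17. BMP4, a ligand, was at 0.64 ± 0.16, and TGFBR3, the co-receptor betaglycan, at 0.85 ± 0.15. The BMP targets ID1 (-1.65 ± 0.57) and ID3 (-0.94 ± 0.31) did not pass. Outside the lists, COXFA4L3, a paralogue of a cytochrome c oxidase subunit, measured 7.72, 8.12 and 8.26 in 5 cGy 24 h cultures, against 9.74, 9.51, 9.64 and 9.70 in sham cultures. This was the fall with the lowest adjusted p among the named genes (-1.62 ± 0.13, adjusted p = 1.55e-09). P3H2, a collagen prolyl 3-hydroxylase, fell by 1.23 ± 0.17, the homeobox gene DLX2 by 1.22 ± 0.23, the FERM-domain gene FRMD3 by 1.08 ± 0.17, and INHBB, an activin and inhibin subunit, by 1.07 ± 0.23. MYBL1, a Myb factor, ING3, a member of the NuA4 complex, and SHISA2 were at -1.21 ± 0.32, -1.13 ± 0.32 and -1.18 ± 0.31. MYBL1 and ING3 passed in 2 of 7 leave-one-out fits, BMP4 in 3, NOG in 4, ID4 and SHISA2 in 5 and INHBB in 6. The highest adjusted p came without 5 cGy 24 h replicate 1 for ID4 (0.121), MYBL1 (0.122) and NOG (0.0919). It came without 5 cGy 24 h replicate 3 for SHISA2 (0.255) and INHBB (0.0636). For ING3 it came without 5 cGy 24 h replicate 2 (0.181) and for BMP4 without sham replicate 2 (0.0992).

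TXNIP, an inhibitor of thioredoxin that responds to glucose, had the lowest called change and uneven cultures. It measured 11.29, 8.17 and 8.66 in 5 cGy 24 h cultures, against 11.94, 11.06, 11.28 and 11.27 in sham cultures. Irradiated replicate 1 was within the sham range and replicates 2 and 3 were far under it, so that the change was -2.01 ± 0.53, and TXNIP passed in 3 of 7 leave-one-out fits (highest adjusted p 0.25, without 5 cGy 24 h replicate 2).

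DHRS3, which reduces retinal, measured 7.86, 7.26 and 7.79 in 5 cGy 24 h cultures, against 5.98, 5.81, 6.13 and 6.10 in sham cultures. The gap was more than 1 log2 unit (change 1.63 ± 0.31, 3.09-fold higher, adjusted p = 0.00209), although its other 2 probe sets gave 0.04 and 0.05. No other gene among 20 analysed for retinoid metabolism passed. AKR1C3, an aldo-keto reductase that acts on steroids and prostaglandins, measured 5.77, 6.25 and 6.90 in 5 cGy 24 h cultures, against 5.07, 5.19, 4.99 and 5.01 in sham cultures. The sham arrays were tight and the irradiated ones spread upward from them (1.24 ± 0.22, adjusted p = 0.00113). PTGES, which makes prostaglandin E2, measured 8.71, 8.71 and 8.94 in 5 cGy 24 h cultures, against 7.35, 7.30, 7.97 and 8.09 in sham cultures. It was higher in each irradiated culture by 1.11 ± 0.16 (adjusted p = 0.000124). The cyclooxygenase PTGS2, upstream of it, was at -0.95 ± 0.39 (adjusted p = 0.197).

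Of 6 CCN matricellular genes, CCN5 and CCN3 rose and the others lay between -0.16 and 0.20. CCN5 measured 7.54, 7.31 and 8.22 in 5 cGy 24 h cultures, against 6.30, 5.32, 6.22 and 6.62 in sham cultures. Sham replicate 2 was the lowest, and the change was 1.57 ± 0.27 (2.97-fold higher, adjusted p = 0.000969). CCN3 measured 7.23, 7.62 and 8.35 in 5 cGy 24 h cultures, against 6.12, 6.46, 6.90 and 6.45 in sham cultures. It rose by 1.25 ± 0.21 (adjusted p = 0.000736), with irradiated replicate 3 the highest. OLFML2B, a secreted olfactomedin-domain protein, measured 10.32, 10.54 and 10.35 in 5 cGy 24 h cultures, against 9.39, 9.03, 8.82 and 9.28 in sham cultures. Its change was 1.27 ± 0.19 (adjusted p = 0.000118), and its 3 other probe sets gave 0.74 to 1.40. OLFML3 (0.47 ± 0.12), the microfibril gene FBN2 (0.57 ± 0.15), the proteoglycan PRELP (0.55 ± 0.15), the stromelysin MMP11 (1.16 ± 0.23), SERPINF1 (0.62 ± 0.17) and cathepsin K, CTSK (0.58 ± 0.17), also rose. Called higher were 2 of 30 elastic fibre and proteoglycan genes, 2 of 26 other matrix genes and 3 of 27 matrix proteases and inhibitors. The share over all genes was 2.13%. No gene of these lists was called lower. Positive and negative changes numbered 27 and 3, 22 and 4, and 15 and 12 in the same order. FBN2 passed in 1 of 7 leave-one-out fits (highest adjusted p 0.162, without 5 cGy 24 h replicate 3). None of 23 collagen genes passed, with 21 of them positive. CTSK passed in 2 of 7 leave-one-out fits, PRELP and OLFML3 in 3 and SERPINF1 in 4. Their highest adjusted p came without 5 cGy 24 h replicate 3 (CTSK 0.321, PRELP 0.284, OLFML3 0.177 and SERPINF1 0.252).

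Wnt signalling had 3 of 29 analysed genes higher, against 2.13% of all genes. APCDD1, an inhibitor of Wnt signalling at the cell surface, measured 10.66, 10.42 and 10.37 in 5 cGy 24 h cultures, against 9.35, 9.10, 9.43 and 9.49 in sham cultures. It was the rise with the lowest adjusted p among the named genes (1.14 ± 0.12, adjusted p = 2.14e-07). The receptor FZD2 changed by 0.75 ± 0.16, and SFRP2, a secreted Wnt binding protein, by 0.68 ± 0.15 with overlapping groups. CDKN1C (p57), an inhibitor of cyclin-dependent kinases, measured 8.94, 9.07 and 9.32 in 5 cGy 24 h cultures, against 7.77, 7.47, 8.27 and 8.41 in sham cultures. The change was 1.13 ± 0.20 (adjusted p = 0.00122), and its 3 other probe sets gave 0.69 to 1.05. DEPTOR, an inhibitor of mTOR, measured 10.07, 10.27 and 10.06 in 5 cGy 24 h cultures, against 9.29, 8.35, 9.15 and 9.34 in sham cultures. It rose by 1.10 ± 0.24 (adjusted p = 0.00653), with an adjusted p of 0.0512 without sham replicate 2. Calls lost in a leave-one-out fit had their highest adjusted p without 5 cGy 24 h replicate 3 for FZD2 (0.0557) and without 5 cGy 24 h replicate 2 for SFRP2 (0.0927).

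Further genes with the largest rises were ADA, adenosine deaminase (1.22 ± 0.16, adjusted p = 3.29e-05), SLC12A8, a transporter (1.54 ± 0.22), TMT1A, a thiol methyltransferase (1.45 ± 0.29), the scaffold AHNAK2 (1.30 ± 0.23), FAXDC2 (1.199 ± 0.22), the BMP-family ligand GDF6 (1.19 ± 0.33), the ciliary gene ARMC9 (1.17 ± 0.22), the mechanically gated channel PIEZO2 (1.11 ± 0.27) and PNMA8A (1.10 ± 0.27). GDF6 passed in 1 of 7 leave-one-out fits (highest adjusted p 0.236, without 5 cGy 24 h replicate 3). SLC12A8 measured 8.60, 8.53 and 8.83 in 5 cGy 24 h cultures, against 6.94, 6.61, 7.42 and 7.47 in sham cultures. Sham replicates 1 and 2 were under the other two, a pattern shared by ADA, AHNAK2, CDKN1C, PTGES, NEU1 and GDF15. TMT1A passed in 6 of 7 leave-one-out fits, PNMA8A in 5 and PIEZO2 in 4. Their highest adjusted p came without 5 cGy 24 h replicate 3 (TMT1A 0.0554, PIEZO2 0.181 and PNMA8A 0.137).

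Of 41 analysed lysosomal genes 5 were called higher, against 2.13% of all genes, and 38 were positive, with a median of 0.28 beside 0.03 for all genes. The count was 1 without 5 cGy 24 h replicate 3 or without sham replicate 2, 2 without 5 cGy 24 h replicate 2, 3 without 5 cGy 24 h replicate 1 and 11 without sham replicate 4. NEU1, the lysosomal sialidase, measured 10.61, 10.77 and 10.99 in 5 cGy 24 h cultures, against 9.69, 9.86, 10.14 and 10.43 in sham cultures. It rose by 0.76 ± 0.14 (adjusted p = 0.00208). The peptidase TPP1 was at 0.65 ± 0.15, CTSK at 0.58 ± 0.17, the sulfatase SGSH at 0.46 ± 0.13 and the ganglioside activator GM2A at 0.38 ± 0.11, and the last 3 passed in 2 of 7 leave-one-out fits each. The list median per array was 0.25, 0.21 and 0.45 in 5 cGy 24 h cultures and -0.14, -0.15, 0.07 and 0.21 in sham cultures, so that sham replicate 4 was close to irradiated replicate 2. With the 7 arrays alone no lysosomal gene passed, 2 passed with each array centred on its median, 2 with the ACTB difference as a covariate and 3 after cyclic loess, and the list median was 0.21 after centring and 0.25 after loess. Of 15 proton pump genes 1 rose (ATP6V1B2, 0.39 ± 0.11), and of 24 autophagy genes 1 rose (OPTN, 0.35 ± 0.09). With 1 array left out, a call was lost, with the highest adjusted p without 5 cGy 24 h replicate 3 for TPP1 (0.151), SGSH (0.344), GM2A (0.255) and ATP6V1B2 (0.188) and without 5 cGy 24 h replicate 1 for OPTN (0.0848).

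**Figure D3:**
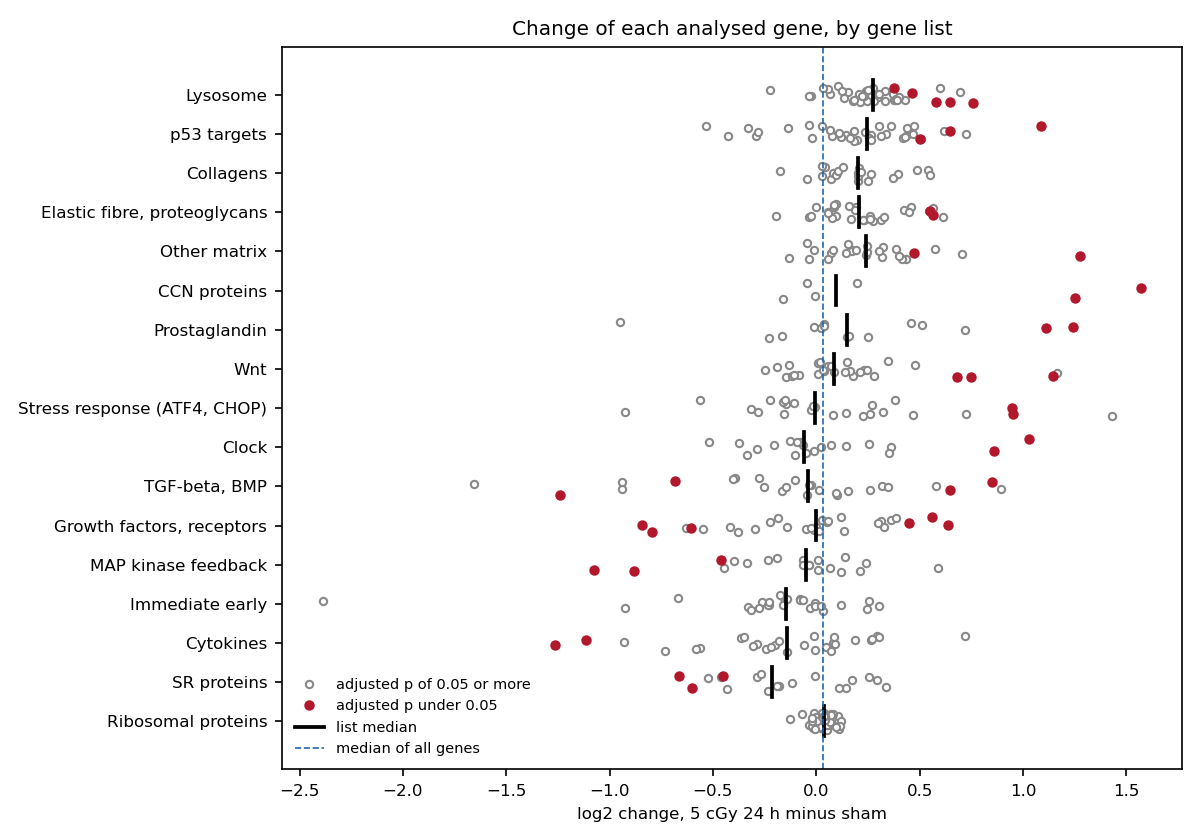
Log2 change, 5 cGy 24 h minus sham, of each analysed gene in 17 gene lists, with called genes filled red, the list median as a bar and the median of all genes (0.03) as a dashed line. Lysosomal genes and p53 targets have list medians of 0.28 and 0.25, SR protein genes -0.21, and ribosomal protein genes stay between -0.13 and 0.12.

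Among 20 analysed clock genes DBP and PER3 rose, against 2.13% of all genes. DBP, an output factor driven by CLOCK and BMAL1, measured 6.64, 6.73 and 6.71 in 5 cGy 24 h cultures, against 5.76, 5.27, 5.86 and 5.77 in sham cultures. The change was 1.03 ± 0.19 (adjusted p = 0.00181), and PER3, a repressor of the clock, was at 0.86 ± 0.22 (adjusted p = 0.0249). PER1 was at -0.37 ± 0.30 and did not pass. Of 20 analysed SR protein genes, which act in splicing, SRSF2, SRSF6 and TRA2B fell, against 0.976% of all genes. SRSF2 measured 9.97, 9.81 and 9.48 in 5 cGy 24 h cultures, against 10.18, 10.68, 10.26 and 10.29 in sham cultures. The change was -0.60 ± 0.12 (adjusted p = 0.00262), with SRSF6 at -0.66 ± 0.19 and TRA2B at -0.45 ± 0.11. The SR list had no call without 5 cGy 24 h replicate 3 or with the 7 arrays alone, 1 without 5 cGy 24 h replicate 2 or sham replicate 2, and 5 without sham replicate 4, and its median of -0.21 was -0.11 without sham replicate 1 and -0.33 without sham replicate 4. No gene passed among 36 hnRNP and core splicing factors (30 negative, median -0.12) or 51 ribosomal proteins. SRSF2 passed in 6 of 7 leave-one-out fits, PER3 and TRA2B in 4 and SRSF6 in 2. Their highest adjusted p came without 5 cGy 24 h replicate 3 (PER3 0.182, SRSF6 0.228, SRSF2 0.0651 and TRA2B 0.228).

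Against 5 cGy at 3 h, 568 genes (3.11%) differed, 338 higher (1.85%) and 230 lower (1.26%). In the S phase lists 26 of 104 genes were lower than at 3 h and none higher, against 1 of 40 in the mitotic list. The list medians were -0.31 and -0.10. With the replicate number as a block 43 S phase genes were lower and 1 higher. In the mitotic list 2 were then lower and 2 higher. Among called genes, DDIT4 had the largest difference upward (2.10 ± 0.53) and CDC45 the largest downward (-1.799 ± 0.27). The contrast with 3 h uses the same 24 h arrays as that with sham, so its counts and those against sham are not independent. Over all genes the count was 113 without 5 cGy 24 h replicate 3 and 265 without 5 cGy 24 h replicate 2. It was 136 without 5 cGy 3 h replicate 2 and 374 without 5 cGy 3 h replicate 1. CDC45 averaged 7.67 at 3 h and 7.52 in sham, and DHRS3 averaged 6.02 at 3 h and 6.01 in sham.

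Against 5 cGy at 12 h, 12 genes (0.0658%) differed, 10 lower (0.0548%) and 2 higher (0.0110%). RRM2 measured 9.53, 8.97 and 8.33 at 24 h, against 10.44, 10.70 and 10.19 at 12 h. That was a difference of -1.51 ± 0.25 (adjusted p = 0.0091), and CDC45 differed by -1.42 ± 0.27 (adjusted p = 0.0226). COXFA4L3 (-0.73 ± 0.14), the splicing factor SRSF2 (-0.67 ± 0.12), MAT2A, which makes S-adenosylmethionine (-0.68 ± 0.12), the RNA-binding EWSR1 (-0.67 ± 0.12), TMEM154 (-0.88 ± 0.16), RIMKLB (-0.95 ± 0.20), LANCL2 (-0.58 ± 0.11) and the phosphatase DUSP12 (-0.43 ± 0.08) were also lower. OSBPL3, an oxysterol-binding protein, was higher by 0.67 ± 0.12 and ZNF143, a promoter-binding factor, by 1.10 ± 0.22. Leaving out 1 array gave 0 to 31 genes, with none left without 5 cGy 24 h replicate 2 or 3 or without 5 cGy 12 h replicate 1 or 2, 7 without 5 cGy 12 h replicate 3, 19 without sham replicate 1 and 31 without 5 cGy 24 h replicate 1. With the 2 groups fitted alone 1 gene passed, and with the replicate number of the labels as a block 193 did. In the S phase lists 2 genes were lower than at 12 h, or 15 lower and 1 higher with the block. No gene of the mitotic list was called in either fit. The list medians were close, at -0.27 for the S phase genes and -0.29 for the mitotic genes. RRM2 averaged 10.56 at 3 h, 10.60 at 6 h, 10.45 at 12 h and 8.94 at 24 h, with a sham mean of 10.44. CDC6 differed from 12 h by -0.82 ± 0.22 and did not pass, but passed with the block (-0.82 ± 0.16, adjusted p = 0.00786). It had means of 9.32 at 3 h, 9.08 at 6 h, 8.69 at 12 h and 7.87 at 24 h. The arrays of DUSP2 and DDIT3 lay outside the sham range from 6 h. DUSP2 averaged 7.25, 6.61, 6.52 and 6.29 at these times and DDIT3 averaged 6.56, 7.50, 7.84 and 7.60. APCDD1 averaged 9.60, 9.82, 10.22 and 10.49.

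**Figure D4:**
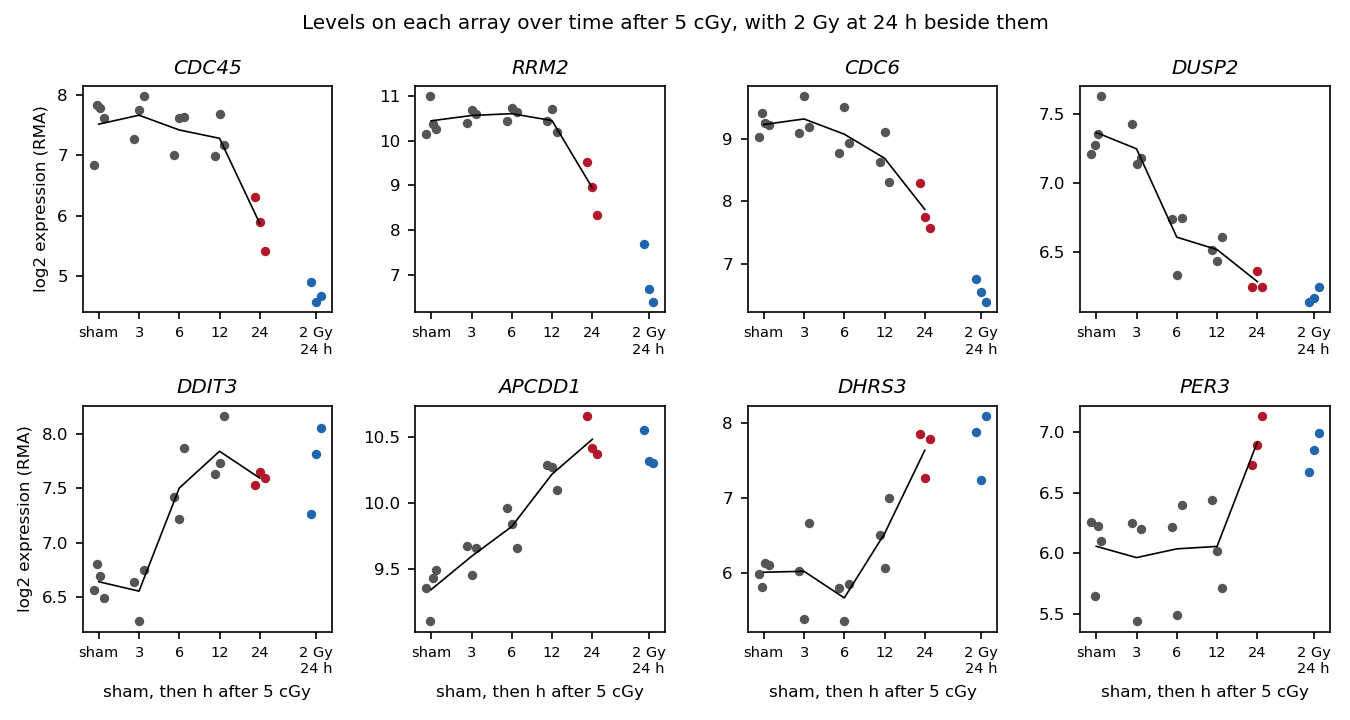
Log2 expression of 8 genes on each array in sham cultures and at 4 times after 5 cGy (3 h, 6 h, 12 h and 24 h), joined by group means, with 2 Gy at 24 h on the right. CDC45 and RRM2 overlap with the sham arrays up to 12 h and lie under them at 24 h, DUSP2 and DDIT3 lie outside the sham range from 6 h, the mean of APCDD1 is higher at each later time, and 2 Gy arrays lie under those of 5 cGy at 24 h for CDC45, RRM2 and CDC6 and overlap with them for the other genes.

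Against 2 Gy at 24 h, where both groups had the same time in culture, 32 genes (0.175%) differed, 29 higher (0.159%) and 3 lower (0.0164%) after 5 cGy. Of the 29 genes that were higher, 7 belonged to the S phase lists and 7 to the mitotic list. All 40 mitotic genes had a positive difference, with a median of 0.96 and 7 of them called, while 82 of 104 S phase genes were positive, with a median of 0.20 and 7 called, beside a median of 0.01 over all genes. Arrays with the same replicate number deviated together in these groups, and with that number as a block 86 genes passed (73 higher, 13 lower), the 32 included, with 15 S phase and 22 mitotic genes higher. RRM2 measured 9.53, 8.97 and 8.33 at 24 h after 5 cGy, against 7.68, 6.68 and 6.40 after 2 Gy. This was the largest difference among called genes (2.02 ± 0.25, adjusted p = 6.43e-05), and the sham level (10.44) was higher still. CENPA, the histone variant of centromeres, measured 8.83, 9.39 and 8.98 at 24 h after 5 cGy, against 7.73, 7.004 and 6.70 after 2 Gy. It differed by 1.92 ± 0.37 (adjusted p = 0.0138, or 0.000711 with the block) and was at 0.13 ± 0.34 relative to sham. MKI67 measured 8.15, 7.98 and 7.76 at 24 h after 5 cGy, against 7.02, 5.72 and 5.80 after 2 Gy, with a difference of 1.78 ± 0.30 (adjusted p = 0.00341). The kinetochore gene SPC25 (1.802 ± 0.28), FAM83D (1.65 ± 0.35), CDCA2 (1.52 ± 0.23), the kinesin KIF2C (1.51 ± 0.33), CDC6 (1.30 ± 0.22), DTL (1.29 ± 0.25), MCM10 (1.03 ± 0.18) and CDC25A (0.99 ± 0.22) were also higher. CDC45 (1.16 ± 0.27) did not pass (adjusted p = 0.0655) and passed with the replicate number as a block (1.16 ± 0.22, adjusted p = 0.00459).

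The 3 genes lower after 5 cGy than after 2 Gy were CDKN1A and CYFIP2, both p53 targets, and STOM, a membrane protein. CDKN1A measured 13.05, 13.19 and 13.15 at 24 h after 5 cGy, against 13.62, 13.62 and 13.64 after 2 Gy. The difference was -0.50 ± 0.11 (adjusted p = 0.0308), with CYFIP2 at -0.74 ± 0.16 and STOM at -0.42 ± 0.08. With the replicate number as a block 6 of 38 p53 targets were lower, against 2 without it. Several leading rises had means close together after the 2 doses, with DHRS3 at 7.64 after 5 cGy and 7.74 after 2 Gy, CCN5 at 7.69 and 7.70, and PTGES at 8.79 and 8.86. Means were also close for DUSP2 (6.29 and 6.19) and DBP (6.69 and 6.69). Replicate 1 of 2 Gy at 24 h had a GAPDH 3′ to 5′ difference of 1.05, and without it 38 genes passed. Without 2 Gy 24 h replicate 3 the count was 6, without 5 cGy 24 h replicate 1 it was 7, and without replicate 2 of either group it was 10.

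**Figure D5:**
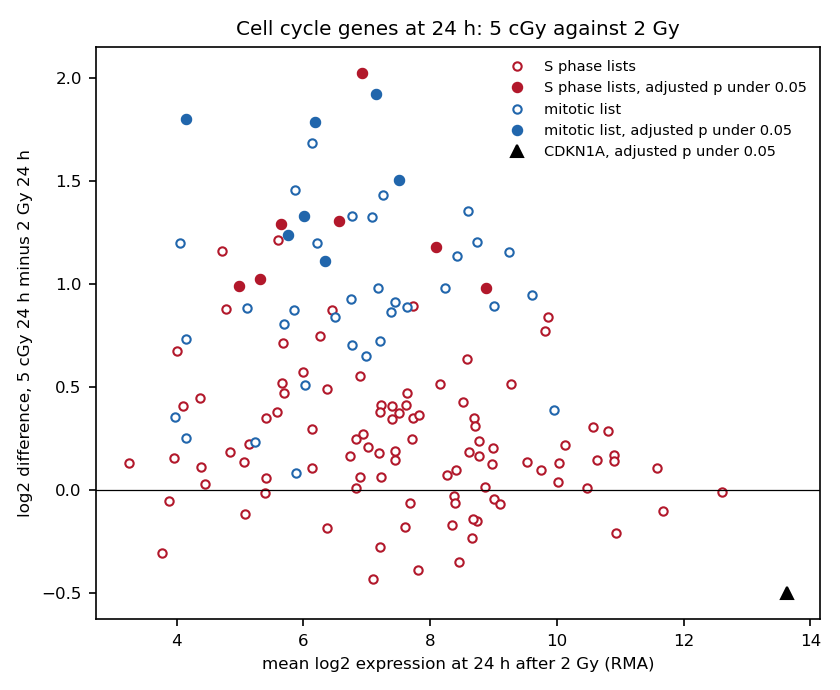
Difference in log2 expression, 5 cGy 24 h minus 2 Gy 24 h, against the mean level after 2 Gy, for the 104 S phase genes (red), the 40 mitotic genes (blue) and CDKN1A (black triangle), with called genes filled. All mitotic genes and 82 S phase genes lie above 0, RRM2 is the highest at 2.02, and CDKN1A lies at -0.50.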

How the data were processed

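The authors hybridised 3′ IVT-labelled RNA to Affymetrix PrimeView arrays and deposited log2 expression values after RMA background adjustment and quantile normalisation. The study's methods name a custom probe annotation and a filter on the interquartile range, while the deposited table held 49495 standard probe sets without missing values, so the probe annotation behind the values is unsettled. Gene names came from the platform annotation (45278 probe sets with 1 gene, 1333 with several, 2782 unnamed and 102 controls), and each of 18244 genes was represented by its probe set with the highest mean over 40 arrays. Levels were compared between arrays. The cell type markers were also set against the median gene, and CCNE2 against the lowest value of the table.

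Groups came from the sample titles. All 40 arrays were fitted with 13 group means in limma 3.58.1 (R 4.3.3), with 27 residual degrees of freedom, moderated variances, two-sided tests and Benjamini-Hochberg adjustment over all genes. A gene was called at an adjusted p under 0.05. Values after ± are standard errors of the fit. Arrays give no counts, so their number limits the precision. Members and gene lists were chosen with earlier results of these data known. Genes were named by rule: the 20 largest called rises and falls without overlap between groups, up to 6 called and 2 uncalled members per list, the study's qPCR genes, and up to 8 called genes per direction in the other contrasts. Promoters came from RefSeq (GRCh38.p14), matched by gene symbol. Alternatives in normalisation, probe set choice, filters, variance model and arrays left out are given at the end. Leaving out single arrays of 5 cGy 3 h, 5 cGy 12 h and 2 Gy 24 h, and the ACTB covariate, were chosen after seeing the data. Whether the replicate numbers of the labels pair the arrays was checked from the deviations of same-numbered arrays. These correlated at 0.34, 0.29 and 0.26 between 5 cGy 24 h and 2 Gy 24 h, each over 0.1. For these 2 groups a fit with the replicate number as a block is therefore given beside the main fit. Against 5 cGy 3 h and 12 h it is given for the S phase and mitotic counts, and for CDC6 at 12 h. Standard errors and adjusted p-values come from the main fit, which ignores the pairing, unless the block is named.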

Additional observations from a re-analysis of the deposited data

Results flagged for a closer look

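In 9 of 237 named genes 1 sham array lay apart from the other 3 by Dixon's ratio of gap to range at its 95% limit, where chance flags about 1 in 20 groups. Sham replicate 1 was the distant array in 6 of them. These were the homeobox gene DLX2 (level 9.05, ratio 0.912), the clamp loader subunit RFC3 (8.54, 0.865), PALB2, which links BRCA1 to BRCA2 (7.49, 0.856), SEL1L of endoplasmic reticulum-associated degradation (10.80, 0.925), the heme oxygenase HMOX1 (7.31, 0.881) and the ferric reductase CYBRD1 (11.19, 0.919). Sham replicate 2 was the distant array for the clock output factor DBP (5.27, 0.839), the stearoyl-CoA desaturase SCD (7.89, 0.862) and FBXO5 (9.06, 0.938).

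Differences between irradiated groups, each tested directly in the same limma fit, were called for 568 genes between 5 cGy at 24 h and 5 cGy at 3 h, for 12 genes between 5 cGy at 24 h and 5 cGy at 12 h, and for 32 genes between 5 cGy at 24 h and 2 Gy at 24 h. Among probe sets that entered no gene-level comparison, 32 of 2782 without a gene name were higher and 37 lower at 24 h after 5 cGy than in sham cultures, and of 1333 that carry several gene names 9 were higher and 18 lower.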

How the results depend on the processing

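The count of genes that differed between 5 cGy 24 h and sham was 193 at an adjusted p under 0.01 and 997 under 0.1, 1791 (1154 higher, 637 lower) with array weights, which gave sham replicate 1 a weight of 0.173, and 1026 over all probe sets, of which 49.8% were higher. On the 7 arrays alone it was 17 (12 higher, 5 lower). With each array centred on its median 209 genes were higher and 284 lower (42.4% higher, against 68.6% in the reported fit), and with the mean of a gene's probe sets 53.9% of calls were higher. In the contrast with 5 cGy 3 h the share of calls higher was 59.5%, or 35.5% after median centring and 43.9% with the mean of probe sets. Array weights gave 1354 genes against 5 cGy 3 h, 31 against 5 cGy 12 h and 111 against 2 Gy 24 h, fits of the compared arrays alone gave 293, 1 and 50, and the mean of probe sets gave 3 against 5 cGy 12 h. Cyclic loess, filters on level or interquartile range, the GAPDH difference as covariate and a mean-variance trend kept these counts within 1.5 times. The ACTB difference as a covariate, chosen after seeing the data, gave 405 genes against sham, 259 of them higher. The causes of these shifts were not tested.

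Leaving out 1 array at a time gave 142 to 853 genes against sham (95 to 626 higher, 47 to 305 lower), 1773 to 2920 at the study's threshold, 113 to 758 against 5 cGy 3 h, 0 to 31 against 5 cGy 12 h and 6 to 44 against 2 Gy 24 h. Of 115 named genes called against sham, 39 passed in each of the 7 fits, 55 lost the call without sham replicate 2 and 72 without 5 cGy 24 h replicate 3.

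With the replicate number as a replicate block 2370 genes differed from sham (1628 higher, 742 lower), 3576 at the study's threshold, 1719 from 5 cGy 3 h, 193 from 5 cGy 12 h and 86 from 2 Gy 24 h. Deviations of same-numbered arrays of 5 cGy 24 h and sham correlated at 0.03, 0.06 and 0.04. There, replicates 1 and 3 of 5 cGy 24 h correlated better with another number. With 5 cGy 3 h, same numbers correlated at 0.07, 0.10 and 0.09, against -0.09 to 0.004 for different numbers. With 5 cGy 12 h they correlated at 0.17, 0.16 and 0.09, against -0.21 to 0.08. At 3 h and 12 h each 5 cGy 24 h array correlated best with its own number. The main fit leaves such a pairing out. Over all groups, same-numbered arrays correlated at a mean of 0.263 and the remaining pairs at -0.12. Of the calls without the block, 566 of 567 against sham and all 568, 12 and 32 in the other contrasts were also made with it. Not every array correlated best with its own number.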
